A study of Mus musculus with 13 samples.

Results

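Cytokine, chemokine and NF-κB feedback genes of the early inflammatory response were followed in mouse bone marrow neutrophils by poly(A)-selected RNA-seq: Il1b, Tnf, Cxcl2, Ccl3, Ccl4, Il1rn, Nfkbia, Nfkbiz, Tnfaip3 and Ptgs2. They were chosen by name and are 10 of the 55536 genes in the tables. Each symbol matched 1 Ensembl gene, and all 10 passed the filter on low counts. The neutrophils were freshly isolated from wild-type (WT) mice and were either mock treated (Mock, n = 2 libraries) or given RNase A in HBSS for 10 min at 37 °C to digest RNA outside the cells (exRNaseA, n = 2 libraries). RNA was extracted with TRIzol after the treatment. The labels give no age or sex and no stimulus other than RNase A. They repeat the RNase A incubation for mock libraries, so the titles (Control RNA for mock, exRNaseA digested) set the groups. The libraries are described as biological replicates without naming the animals or pools behind them. The p-values therefore judge the group difference against the spread between libraries within a group, estimated with help from all tested genes. Whether that spread is one between animals is not known.

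NF-κB is a family of transcription factors held in the cytoplasm by IκB proteins. Signals from Toll-like receptors or from the receptors of interleukin-1 and TNF activate the IKK kinase, IκB is degraded, and NF-κB enters the nucleus to switch on cytokine genes together with genes that shut the response down again. In neutrophils these messages are made quickly and many of them are short-lived. The set holds both sides of that circuit: secreted signals, the enzyme of inducible prostaglandin synthesis, and the proteins that limit the signal.

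The comparison asked whether cellular messages differ once RNA on the outside of the cells has been digested. The fitted differences of the 10 genes, exRNaseA against mock, ran from -7.58% (Ccl4) to 1.44% (Nfkbia), and the widest 95% interval, that of Ccl4, ran from -17.3% to 3.28%. edgeR's quasi-likelihood test called 0 of the 10 (lowest adjusted p = 0.753), against 0.0917% of the 14184 genes tested (13 genes). DESeq2, limma-voom and limma on TPM or FPKM also called 0 of them, and 2 of the 10, Il1b and Il1rn, were lower at an unadjusted edgeR p under 0.05, where 3.07% of all tested genes were. That share was 9.85% among tested genes at or above the mean TPM of Nfkbia and 24.2% among those at or above Cxcl2. The 95% intervals of all 10 log2 changes lay between -0.3 and 0.3. Over all tested genes this was counted only for limits of -0.5 and 0.5, which held the intervals of 9522 of the 14184 and of all 10 members. The share among genes as abundant as the members was not counted, so narrow intervals are not read as a trait of the members. Total expected counts were between 20661683 and 23722494 per library. Below, levels are in TPM (transcripts scaled to library and length, so genes can be compared), changes are on the log2 scale of TMM-scaled counts, exRNaseA minus mock, and CPM is counts scaled to library size on that same scale.

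**Figure D1:**
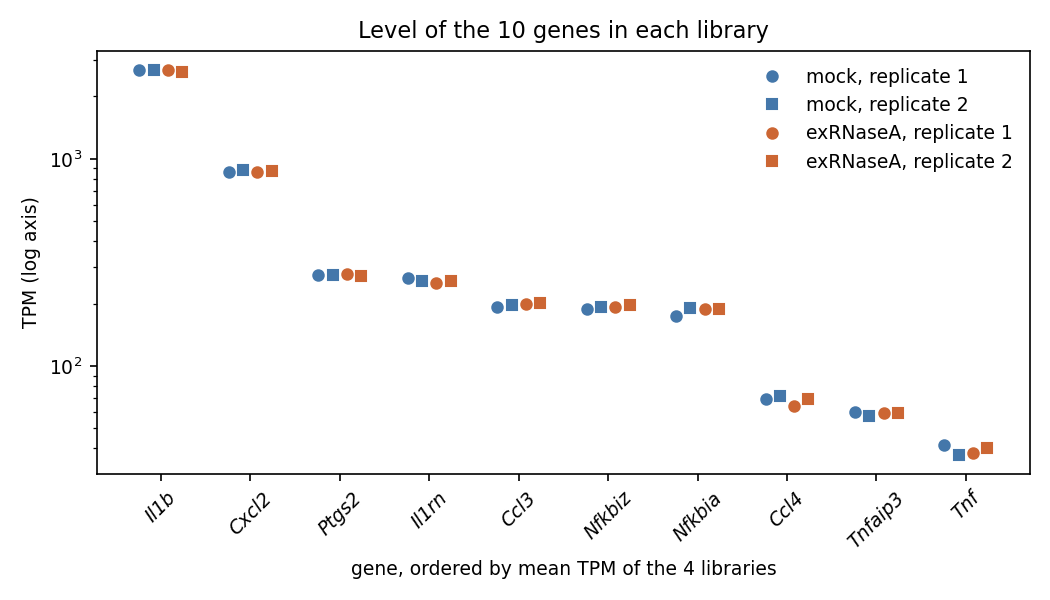
TPM on a log axis for each of the 10 genes, with 1 point per library, 2 mock and 2 exRNaseA. Il1b stood highest at 2617 to 2685 TPM and Tnf lowest at 37.4 to 41.5 TPM, and the 4 points of a gene lie close together.

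Il1b encodes interleukin-1β, a cytokine stored as an inactive precursor until it is cut by caspase-1. The gene (ENSMUSG00000027398.13, chromosome 2, 129364569 to 129371164, RefSeq GRCm38.p6) was at 2675 and 2685 TPM in the mock libraries and at 2684 and 2617 TPM in the exRNaseA libraries. It ranked 21 among the 14184 tested genes by mean TPM and held 54.8% to 55.7% of the summed TPM of the 10 genes in each library. One exRNaseA library was the lowest of the 4, while the other lay within the mock values in TPM. In CPM, however, both exRNaseA libraries (1942 and 1867) were under both mock libraries (1967 and 1970). The log2 change was -0.048 (SE 0.022), a difference of -3.28% with a 95% interval from -6.28% to -0.177%, which did not pass the edgeR test after adjustment (adjusted p = 0.756). Without exRNaseA replicate 1 the log2 change was -0.076 and edgeR called Il1b (adjusted p = 0.0416), while in the other alternatives it was not called.

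Il1rn encodes the interleukin-1 receptor antagonist, which occupies the receptor without signalling. The gene (ENSMUSG00000026981.15, chromosome 2, 24336860 to 24351491) was at 265 and 257 TPM in mock and at 252 and 256 TPM in exRNaseA libraries. Both exRNaseA libraries lay under both mock libraries, in TPM as in CPM (242 and 243 against 230 and 234 CPM). The log2 change of -0.064 (SE 0.028; adjusted p = 0.753, edgeR) is a difference of -4.34% (95% interval -8.21% to -0.314%). Within a library, Il1b stood at 10.1 and 10.5 times the TPM of Il1rn in mock and at 10.7 and 10.2 times in exRNaseA libraries. That balance of agonist to antagonist overlapped between the groups.

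Tnf encodes tumour necrosis factor, a cytokine made as a membrane protein and released by cleavage. The gene (ENSMUSG00000024401.14, chromosome 17, 35199367 to 35202007) was the least abundant of the 10, at 41.5 and 37.4 TPM in mock and 38 and 40 TPM in exRNaseA libraries. The groups overlapped, and the mock libraries held both the highest and the lowest value. The log2 change was -0.053 (SE 0.061; 95% interval -0.18 to 0.076; adjusted p = 0.936, edgeR). The gap between the mock replicates was 0.16 on the log2 CPM scale, larger than the difference between the group means of 0.049. Without mock replicate 1 the log2 change of Tnf was 0.031, so its direction rests on that library.

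Cxcl2 encodes a chemokine that attracts neutrophils through the receptor CXCR2. The gene (ENSMUSG00000058427.10, chromosome 5, 90903899 to 90905938) was at 862 and 882 TPM in mock and at 860 and 874 TPM in exRNaseA libraries, rank 99 of the tested genes. The TPM values overlapped, while in CPM the exRNaseA libraries (675 and 659) were both under the mock libraries (682 and 692). The log2 change was -0.041 (SE 0.024; adjusted p = 0.825, edgeR). To 2 decimals its expected counts were whole in 2 of the 4 libraries and 0.01 from a whole number in the other two, while those of the other 9 genes were whole in all 4.

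Ccl3 and Ccl4 encode MIP-1α and MIP-1β, neighbouring chemokines that draw monocytes and lymphocytes. Ccl3 (ENSMUSG00000000982.5, chromosome 11, 83647843 to 83649378) was at 192 and 197 TPM in mock and at 200 and 203 TPM in exRNaseA libraries. Both exRNaseA libraries were above both mock libraries in TPM but overlapped them in CPM (78.2 and 79.5 against 79.4 and 79.7), and the log2 change was 0.015 (SE 0.039; adjusted p = 0.973, edgeR). Ccl4 (ENSMUSG00000018930.3, chromosome 11, 83648624 to 83664683) was at 69.1 and 71.8 TPM in mock and at 64.1 and 69.0 TPM in exRNaseA libraries. For Ccl4 the exRNaseA libraries were the lower ones on both scales. Its log2 change of -0.11 (SE 0.077; 95% interval -0.27 to 0.047; adjusted p = 0.877, edgeR) was the largest of the 10 and the least precise, from 431 to 538 counts per library. The Ccl3 to Ccl4 ratio of TPM was 2.78 and 2.74 in mock and 3.11 and 2.94 in exRNaseA libraries, with no overlap between the groups. Among the other ratios read, those of Ptgs2 to Ptgs1 and Nfkbia to Nfkbie also did not overlap, and the rest did. These differences were not tested, and no share over other pairs of genes was counted. The RefSeq spans of this pair overlap and the sources used here give no strand setting for the counting. The expected counts of both genes were whole in all 4 libraries, which does not show to which gene reads of the overlap were assigned.

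Ptgs2 encodes cyclooxygenase-2, the inducible enzyme at the head of prostaglandin synthesis. The gene (ENSMUSG00000032487.8, chromosome 1, 150100031 to 150108234) was at 276 and 274 TPM in mock and at 278 and 272 TPM in exRNaseA libraries. The highest and the lowest value were both in the exRNaseA group, and the spread over the 4 libraries was a coefficient of variation of 0.899%, the smallest of the 10. The log2 change was -0.034 (SE 0.024; adjusted p = 0.878, edgeR).

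Nfkbia encodes IκBα, which binds NF-κB and carries it out of the nucleus. The gene (ENSMUSG00000021025.8, chromosome 12, 55489409 to 55492647) was at 174 and 192 TPM in mock and at 188.31 and 188.27 TPM in exRNaseA libraries. Both exRNaseA values lay between the mock values. The log2 change was 0.021 (SE 0.037; adjusted p = 0.958, edgeR), and without mock replicate 1 it was -0.043. Nfkbiz encodes IκBζ, a nuclear IκB protein needed for a second wave of NF-κB target genes. It (ENSMUSG00000035356.17, chromosome 16, 55811375 to 55838954) was at 189 and 193 TPM in mock and at 192 and 196 TPM in exRNaseA libraries, which overlap. Its log2 change was -0.010 (SE 0.025; 95% interval -0.062 to 0.042; adjusted p = 0.971, edgeR), and its direction turned in 6 of 16 alternatives. Tnfaip3 encodes A20, which edits ubiquitin chains to end signalling to IKK. It (ENSMUSG00000019850.11, chromosome 10, 19000910 to 19015410) was at 59.9 and 57.5 TPM in mock and at 59.5 and 59 TPM in exRNaseA libraries, which overlap. In CPM the exRNaseA libraries (170 and 166) were under the mock libraries (173 and 174), with a log2 change of -0.045 (SE 0.031; adjusted p = 0.878, edgeR). On the TPM scale limma gave Tnfaip3 a log2 change of 0.014. The mock library with the lowest TPM had the longest estimated mean transcript, 4461 bases against 4247 to 4283 in the others.

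**Figure D2:**
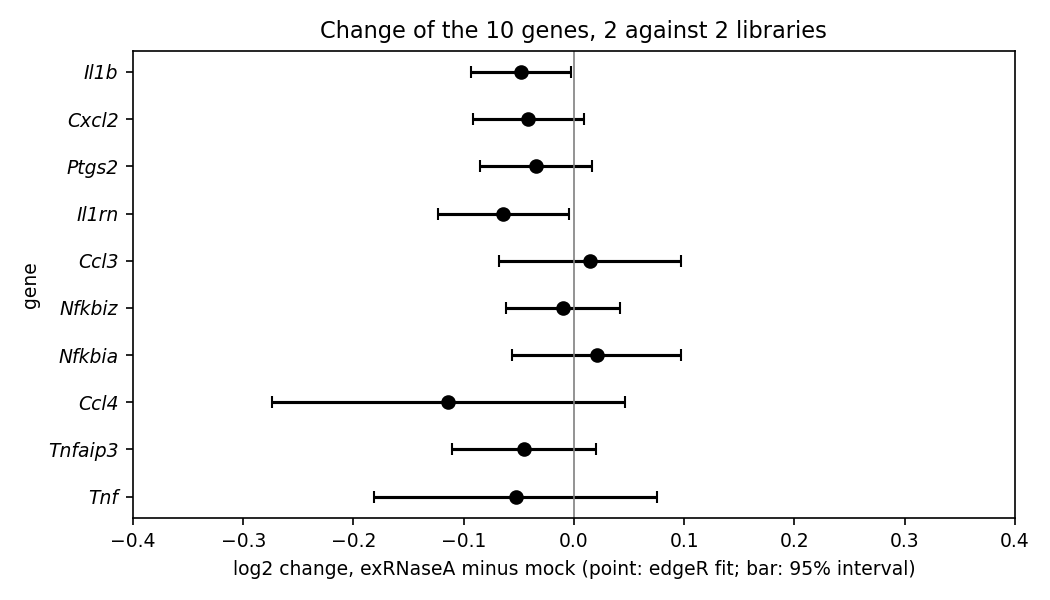
Fitted log2 change (exRNaseA minus mock, x axis) of each of the 10 genes (y axis) with its 95% interval, from 2 mock and 2 exRNaseA libraries. The points of 8 genes lie below 0, the intervals of Il1b and Il1rn end just below 0, and the interval of Ccl4 is the widest.

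The κB consensus of NF-κB was searched on both strands in RefSeq windows from 250 bases before to 50 bases after each start (GRCm38.p6). Of the 8 genes with a window, Cxcl2, Nfkbia and Tnfaip3 held a full match, against 9.55% of 27025 genes. Ccl4 and Nfkbiz were not in the table. The matches stand in capitals within the bases around them, on the strand of the gene and up to the base before the start. The Cxcl2 match is 11 bases, because a match on each strand overlaps by all but 1 base, and the first Tnfaip3 match reads as the consensus on both strands.
Cxcl2, chr5:90903782-90903832, plus strand: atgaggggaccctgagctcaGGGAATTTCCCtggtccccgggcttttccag
Tnfaip3, chr10:19015506-19015555, minus strand: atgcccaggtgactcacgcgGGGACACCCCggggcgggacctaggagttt
Tnfaip3, chr10:19015411-19015442, minus strand: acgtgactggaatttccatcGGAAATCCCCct
Nfkbia, chr12:55492648-55492696, minus strand: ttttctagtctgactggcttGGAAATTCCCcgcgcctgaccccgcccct
Counted from the start, the matches begin at -97 in Cxcl2, at -125 and -12 in Tnfaip3 and at -29 in Nfkbia. These 3 genes had log2 changes of -0.041, -0.045 and 0.021. With 1 mismatch allowed, 7 of the 8 genes and 65.6% of all genes held a match. The letters TATAAA, searched on both strands after the windows were seen, were in 5 of the 8 genes and in 15.7% of all genes. In Il1b and Tnf they began at -31 and -29, the usual distance of a TATA box. The other matches were not at that distance. In Tnfaip3 the letters began at -225. In Il1rn and Nfkbia they lay on the opposite strand after the start, from 15 and 20, and in Il1rn only in the window of the start at 24345371. A match describes the letters and does not show that a factor was bound.

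**Figure D3:**
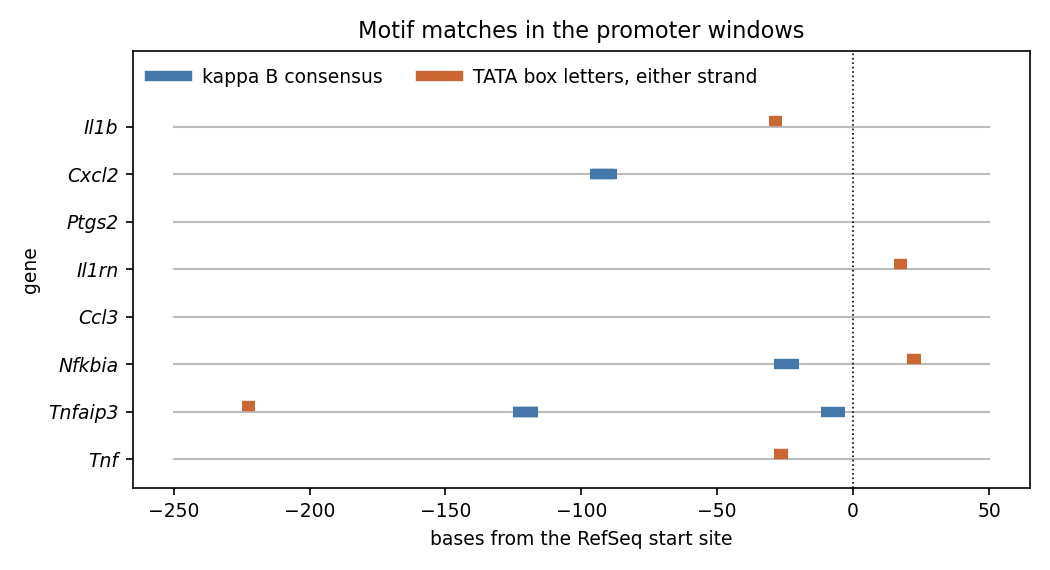
Matches in the promoter windows of the 8 genes that had one, drawn by distance in bases from the RefSeq start (x axis, dotted line at the start) with 1 row per gene. Blue bars are the κB consensus, in Cxcl2, Nfkbia and Tnfaip3, and orange bars the TATA box letters, in Il1b, Il1rn, Nfkbia, Tnfaip3 and Tnf; genes with several starts are drawn in 1 row.

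By mean TPM over the 4 libraries the order was Il1b, Cxcl2, Ptgs2, Il1rn, Ccl3, Nfkbiz, Nfkbia, Ccl4, Tnfaip3 and Tnf. Of the 9 neighbouring pairs, 2 overlapped in their library values: Ccl3 with Nfkbiz, and Nfkbiz with Nfkbia. Ptgs2 (272 to 278 TPM) and Il1rn (252 to 265 TPM) were next to each other without overlap, at a ratio of 1.07. The largest steps were from Cxcl2 to Ptgs2, at 3.16 times, and from Il1b to Cxcl2, at 3.07 times. The first 7 genes were all among the top 4.58% of tested genes, and Tnf stood at 22.7%. Together the 10 genes held 0.477% to 0.485% of all TPM in a library.

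Several members stood far above relatives of their own family, which were picked after their values were seen. Il1a, the other interleukin-1 agonist, was at 0.60 to 1 TPM, so Il1b stood 2617 to 4473 times higher. Cxcl1 and Cxcl3, which share the receptor of Cxcl2, were at 0.78 to 1.3 TPM and at 3.31 to 4.77 TPM. Ptgs1, the constitutive cyclooxygenase, was at 44.4 to 47.8 TPM, and Ptgs2 stood 6.02 and 6.19 times higher in mock and 5.93 and 5.69 times higher in exRNaseA libraries. Among IκB genes, Nfkbib was at 14.8 to 17.8 TPM and Nfkbie at 13 to 15.2 TPM, against 174 to 192 TPM for Nfkbia. Bcl3, a relative of Nfkbiz, was at 15.8 to 22 TPM, but Nfkbid, another nuclear IκB gene, was at 110 to 121 TPM. Il6, Il10 and Il23a, cytokines that macrophages make through NF-κB, were at 0.05 to 0.53 TPM and too low to test. They are not typical of their list, where 21 of 28 other cytokines and chemokines were tested. Il12a (9.55 to 12.9 TPM), Il15 (37.4 to 51.1 TPM) and Ebi3 (48.4 to 51.3 TPM), also picked after their values were seen, stood higher.

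**Figure D4:**
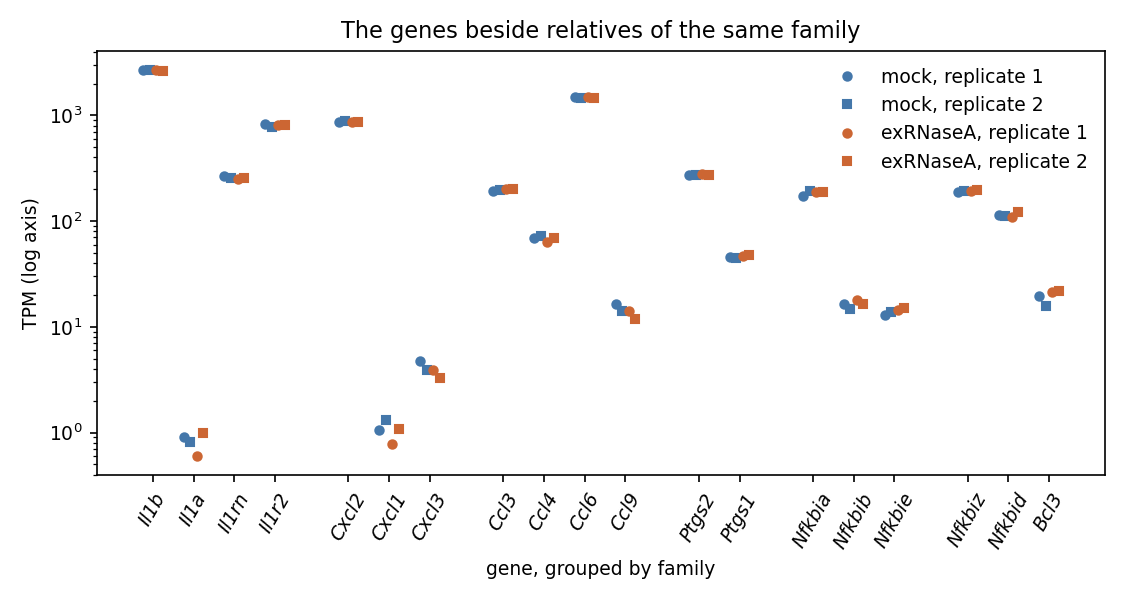
TPM on a log axis for the members and for relatives of the same family, 1 point per library. Il1b, Cxcl2, Ptgs2 and Nfkbia stand above Il1a, Cxcl1 and Cxcl3, Ptgs1, and Nfkbib and Nfkbie in all 4 libraries, while the chemokine Ccl6 stands above Ccl3 and Ccl4.

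Of the 10 log2 changes 8 were negative, with a median of -0.043, against 50.1% negative and a median of -0.0003 over all tested genes. In 6 genes both exRNaseA libraries were below both mock libraries in CPM (Il1b, Cxcl2, Ptgs2, Il1rn, Ccl4 and Tnfaip3) and in 0 were both above, where all tested genes gave 18.0% below and 17.7% above. In TPM the groups overlapped for 7 of the 10, Il1rn and Ccl4 were lower and Ccl3 was higher. The shares over all tested genes were not counted in TPM, so no excess among the members is read from these genes. In 4 genes (Cxcl2, Ccl4, Il1rn and Tnfaip3) the difference between group means was larger than the gap between replicates in both groups. This was not counted over all tested genes, so the 4 cannot be read as a trait of the members. The share of negative changes was larger among abundant genes across the whole table, at 58.8% of the 3214 tested genes at or above the mean TPM of Tnf, 69.5% of the 650 at or above Nfkbia and 86.9% of the 99 at or above Cxcl2. Both exRNaseA libraries were below both mock libraries in 25.0%, 37.4% and 48.5% of those genes. The neutrophil markers, led by S100a9 at 117292 to 125568 TPM, had a median of -0.051 with 11 of 13 negative, 11 at an unadjusted edgeR p under 0.05 and 0 called. The part of abundance in the members' direction was not tested.

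The other genes of the pathway were read from 7 lists with 138 different genes, of which 127 were tested. edgeR called 0 of them (lowest adjusted p = 0.404), with 4 higher and 8 lower at an unadjusted p under 0.05, where all tested genes gave 6.35% in either direction. The median log2 change of the 127 was -0.012.

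Of 28 other cytokines and chemokines, 21 were tested and 14 had a negative change (median -0.040). Ccl6, a chemokine of myeloid cells, was the most abundant at 1474 to 1486 TPM, above Cxcl2, with a log2 change of -0.038. Osm (oncostatin M) was at 208 to 221 TPM with 0.019. Tgfb1 was at 61 and 66.3 TPM in mock and at 66 and 71.1 TPM in exRNaseA libraries, with a log2 change of 0.13 (adjusted p = 0.609, edgeR). Il12b and Ccl7 had no counts in any library.

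Of 35 receptors and adaptors, 34 were tested and 23 had a negative change (median -0.026). Il1r2, a decoy receptor that binds interleukin-1β without signalling, was the most abundant at 780 to 830 TPM, above Il1rn, with a log2 change of -0.031. Il18rap (-0.005) and Tnfrsf1a, the main TNF receptor (-0.050), stood at 210 to 224 and 203 to 208 TPM. Il1rap, the shared chain of the interleukin-1 receptor, was at 22.2 and 21.2 TPM in mock and at 19.9 and 20.2 TPM in exRNaseA libraries. Its log2 change of -0.17 did not pass the edgeR test (adjusted p = 0.404).

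Of 13 IKK, NF-κB and IκB genes, all 13 were tested and 10 had a positive change (median 0.041). The most abundant were Nfkbid (-0.002) and the DNA-binding subunits Nfkb1 (67 to 71.6 TPM, 0.001) and Rela (54.5 to 65.8 TPM, 0.041). Nfkb2, the subunit of the alternative pathway, was at 16.8 and 16.1 TPM in mock and at 18.2 and 20.1 TPM in exRNaseA libraries. Its log2 change was 0.20 (adjusted p = 0.548, edgeR). The groups of Nfkb2 did not overlap, and the test did not call it.

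Of 24 other feedback and target genes, 23 were tested and 18 had a negative change (median -0.044). Plaur, the urokinase receptor, was at 576 to 626 TPM (-0.034), Dusp1, a phosphatase of MAP kinases, at 568 to 594 TPM (0.016) and Zfp36, which marks cytokine messages for decay, at 528 to 562 TPM (0.026). Zc3h12a, an RNase that cuts cytokine messages inside the cell, was at 49.5 and 43.1 TPM in mock and at 42.3 and 44.8 TPM in exRNaseA libraries (-0.11; adjusted p = 0.724, edgeR). Of the 14 genes of messenger RNA decay factors, all were tested and 11 had a positive change (median 0.032). Besides Zfp36, Hnrnpd (321 to 335 TPM, 0.072) and Zfp36l2 (141 to 150 TPM, 0.023) were the most abundant there.

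All 10 genes of interleukin-1 processing were tested and 7 had a negative change (median -0.021). Nlrp3, the sensor that activates caspase-1, was at 189 to 199 TPM (-0.003), Gsdmd, the pore protein, at 83 to 95.8 TPM (0.016) and Casp1 at 41.2 to 43.4 TPM (-0.052). Nlrc4 was at 2.45 and 2.49 TPM in mock and at 1.71 and 2.13 TPM in exRNaseA libraries (-0.37; adjusted p = 0.708, edgeR). Of 16 enzymes of prostaglandin and leukotriene synthesis, 14 were tested and 8 had a negative change (median -0.006). Alox5ap, which presents arachidonic acid to 5-lipoxygenase, was at 885 and 846 TPM in mock and at 765 and 852 TPM in exRNaseA libraries, which overlap (-0.090; adjusted p = 0.530, edgeR). Lta4h (292 to 303 TPM, -0.050) and Alox5 (192 to 200 TPM, -0.003) followed.

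**Figure D5:**
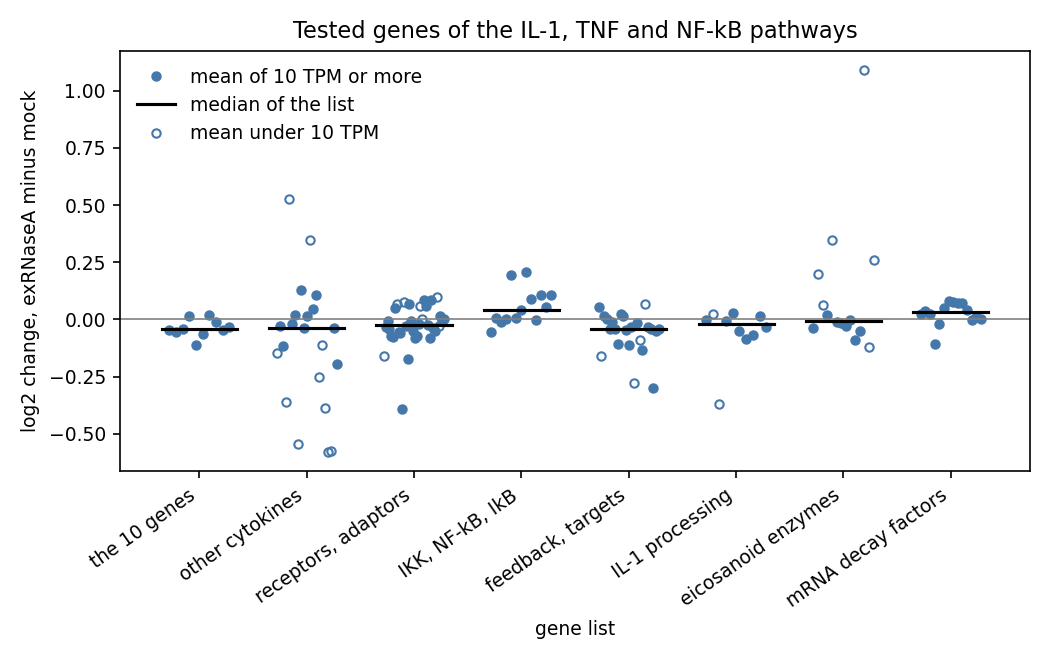
Log2 change (exRNaseA minus mock) of each tested gene of the 10 and of the 7 pathway lists, with black bars at the list medians. Filled points are genes at a mean of 10 TPM or more and open points weaker genes; the largest changes are among the open points, and the medians run from -0.044 to 0.041.

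The cells carried the markers of neutrophils: the 13 neutrophil markers summed to 287100 and 288000 TPM in mock and to 288300 and 275200 TPM in exRNaseA libraries, led by S100a9, S100a8 and Ngp. Several other cells of the marrow also make these cytokines, and in bulk RNA fewer cells of a type and less RNA per cell cannot be told apart. The 14 monocyte and macrophage markers summed to 1084 to 1098 TPM in mock and 1084 to 1102 TPM in exRNaseA libraries (13 tested, median 0.005), most of it Ly6c2, while Cd68 and Csf1r were at 28.3 to 36.7 TPM. Of the complement genes of resident macrophages, at 18 to 41 counts per library, C1qa was at 1.84 and 1.7 TPM in mock and at 3.35 and 2.99 TPM in exRNaseA libraries (0.80; adjusted p = 0.708, edgeR), while C1qb had a log2 change of 0.40 and C1qc of -0.085. Markers of basophils, eosinophils and mast cells summed to 1311 to 1315 and 1306 to 1314 TPM (13 tested, median -0.065). Hdc (595 to 625 TPM), Prg2 (396 to 423 TPM) and Ear2 (147 to 152 TPM) led this list, with Mcpt8 at 2.05 to 4.78 TPM. Which cells made the Hdc message was not tested. Dendritic cell markers summed to 569 to 586 and 575 to 580 TPM (9 tested, median -0.056). Most of this sum was Cd74 (327 to 343 TPM), H2-Aa (127 to 135 TPM) and H2-Ab1 (87.8 to 100 TPM). Whether dendritic cells made these messages was not tested. B cell markers summed to 1964 to 1980 and 1977 to 1986 TPM (10 tested, median 0.001). T and NK cell markers summed to 76.8 to 77.2 and 72.4 to 73 TPM (12 tested, median -0.18). Erythroid markers summed to 4863 to 5001 and 5083 to 5097 TPM (10 tested, 0.038), megakaryocyte markers to 21.2 to 24.3 and 19 to 22.6 TPM (6 tested, -0.092) and stromal markers to 20.2 to 21.6 and 19.7 to 22 TPM (2 tested, 0.025). edgeR called 0 genes of these 9 marker lists. Of their genes only the stromal gene Lepr had no counts in any library, and the part of other cells in the levels of the 10 genes was not tested.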

How the data were processed

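Poly(A) RNA-seq of 2 mock and 2 exRNaseA libraries of bone marrow neutrophils was used. The 9 small RNA libraries were not used here. Per the submitters' processing notes, the authors used STAR 2.4.2a, RSEM 1.3.3 and the mm10 build. Each deposited file lists RSEM's expected count, TPM and FPKM per gene, per the file headers. The sources used here give neither the strandedness nor the gene annotation release. Symbols were paired with 55450 of 55536 gene IDs.

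Rounded expected counts of the 14184 genes kept by filterByExpr were scaled by TMM (factors from 0.993 to 1.01), and the quasi-likelihood test of edgeR 4.0.16 compared the groups, with Benjamini-Hochberg adjustment over all tested genes at 0.05. Standard errors and 95% intervals came from the fitted weights. The biological coefficient of variation was 0.0244. On simulated counts of this comparison, edgeR called 23 of 50 genes with a 1.25-fold change. It called 36 of 48 genes with 1.5-fold, 44 of 50 with 2-fold and 48 of 49 with 4-fold changes. False calls numbered 9 among 14009 genes, and intervals covered the true change for 95.2% of 14206 genes. Every simulated gene had the same biological coefficient of variation, 0.0244, and the counts followed the fitted kind of model. These rates therefore do not cover genes whose spread differs from that value.

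The members, the lists and the tests were chosen with earlier results of these data known. The text names all 10 members and, from each list, the 3 genes of highest mean TPM and the tested gene with the smallest p, unless listed as chosen later; for the lists of other cells only some are given. Alternatives were DESeq2 1.42.0 and limma 3.58.1 on log2(TPM + 1), log2(TPM + 0.1) and log2(FPKM + 1) with a minimum of 1 in 2 libraries. On log2(TPM + 1) limma was also run with no minimum. Further alternatives were limma-voom, other scalings and filters, unrounded counts, a threshold of 0.1, the replicate number as a block and each library left out. Promoter windows came from RefSeq (GRCm38.p6), and 8 of the 10 symbols matched.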

Additional observations from a re-analysis of the deposited data

How the results depend on the processing

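Of the 10 genes, 0 were called under every alternative except without exRNaseA replicate 1, where 1 (Il1b) was called, so the range over left-out libraries was 0 to 1. With no filter and in the other alternatives 0 of the pathway genes were called. The median log2 change of the 10 was -0.043, and -0.0042 with limma on log2(TPM + 1), on log2(TPM + 0.1) or on log2(TPM + 1) with no filter; over all genes the TPM median was 0.030, 0.033 and 0.014, against -0.0003 on counts, and 8, 8 and 7 of the 10 lay below it. Over left-out libraries the median of the 10 was -0.056 to -0.022. The log2 change of Nfkbiz was 0.0083 with total count scaling, 0.0228 with limma on log2(TPM + 1), with or without a filter, 0.0229 on log2(TPM + 0.1), 0.0071 on log2(FPKM + 1) and, over left-out libraries, -0.0202 to 0.0002, the latter without mock replicate 2. Tnfaip3 was at 0.0141 on log2(TPM + 1), with or without a filter, and 0.0143 on log2(TPM + 0.1). Over left-out libraries Nfkbia ran from -0.0425 to 0.0833 and Tnf from -0.1263 to 0.031, where -0.0425 and 0.031 were the values without mock replicate 1. The other 6 genes kept their direction in all 16 alternatives. Over all genes 13 were called: 149 with no filter, 7 at 10 CPM in 2 libraries, 7, 8 and 0 with limma on log2(TPM + 1), log2(TPM + 0.1) and log2(TPM + 1) with no filter, 7 on log2(FPKM + 1), and, with a library left out, 74 without mock replicate 1, 9 without mock replicate 2, 59 without exRNaseA replicate 1 and 29 without exRNaseA replicate 2. The cause of these differences was not tested. With the replicate block 55 genes were called and 0 of the 10. The correlation of the replicate differences between the groups was -0.032 over all tested genes. It was 0.047 over the 7828 that averaged at least 10 CPM. Whether the replicate numbers pair the samples cannot be decided from these values, because counting error can hide a shared difference. The order by level was the same in FPKM and within each library but differed for 9 of 10 genes in CPM, which is not per length. With 1 mismatch allowed 7 of 8 promoter windows matched. Where a left-out library leaves 1 in a group, that library is assumed to vary like the others. Counting error alone gives a log2 SD of 0.065 for Ccl4 and 0.007 for Il1b; the spread within groups was 0.052 and 0.029, and for Tnf it was 0.083 against a counting SD of 0.049.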
